A study of Homo sapiens with 6 samples.

Results

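Small nucleolar RNA host genes are transcribed into long noncoding RNAs whose introns carry small nucleolar RNAs (snoRNAs). The rows for SNHG genes and for GAS5, a growth arrest-specific host gene, were selected by name from a deposited table of 3511 genes, and 9 were found. They are SNHG1, SNHG4, SNHG7, SNHG8, SNHG10, SNHG15, SNHG16, SNHG29 and GAS5. The deposited name column is blank for all of them (435 rows have no name), so the pattern was applied to the symbols that a gene name table gives for their Ensembl identifiers. That name table holds 29 such symbols, and the other 20 are not listed in the deposited table, so they have no value here.

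The cells were RKO, a human colorectal carcinoma line, labelled wild type (WT). Their RNA was sequenced after 48 h in DMEM-based fasting medium with 1% serum and glucose at 1 g/L (3 libraries) or in control medium with 10% serum and glucose at 4.5 g/L (3 libraries). All libraries come from this 1 line, and the labels do not say that replicates were grown separately, so each p-value reflects the spread among these libraries alone, which could be technical. Fasting medium lowers serum and glucose together, and their parts cannot be told apart. Since RNA came from whole cultures, fewer cells with a transcript and less of it per cell cannot be told apart either.

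A snoRNA guides chemical modification of ribosomal RNA, box C/D members directing ribose methylation and box H/ACA members pseudouridylation, while the related small Cajal body RNAs act on spliceosomal RNA. The snoRNA is trimmed from the excised intron, and the spliced exons leave the nucleus as a separate RNA. In many host genes, GAS5 among them, that exonic RNA is bound by ribosomes and degraded by nonsense-mediated decay. Several host genes also start with a terminal oligopyrimidine (TOP) tract like that of ribosomal protein mRNAs, whose translation depends on mTOR signalling. GAS5 was first isolated from growth-arrested mouse fibroblasts, and its RNA can bind the glucocorticoid receptor.

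The RefSeq annotation (GRCh38.p14) places 33 snoRNA or small Cajal body RNA genes within the spans of the 9 host genes. GAS5 holds 11, of which 10 are of the SNORD (box C/D) class, and SNHG1 holds 9. SNHG29 holds 3 (SNORD49A, SNORD49B and SNORD65) and SNHG16 holds 3 (SNORD1A, SNORD1B and SNORD1C). The SNORA (box H/ACA) class is found in SNHG7 (SNORA17A and SNORA17B), SNHG4 (SNORA74A and SNORA74D), SNHG8 (SNORA24) and SNHG15 (SNORA9). SNHG10 holds SCARNA13, a small Cajal body RNA. None of the 33 (0) is listed in the deposited table. The values below are those of the host gene rows.

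The first 30 bases of annotated transcripts are shown for 7 host genes, since a TOP tract is a feature that host genes can share with ribosomal protein genes. For each gene the GENCODE release 29 transcript with the longest run of C and T from a first-base C was taken, and capitals mark that run on the sense strand.
GAS5: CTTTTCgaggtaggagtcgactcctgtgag
SNHG29: CTCCTTTTgtgaggattgggatattccgac
SNHG1: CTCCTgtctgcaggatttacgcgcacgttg
SNHG16: CTTTTCgaggtcggccgcgtggctggaaga
SNHG8: CTTTCacattcgggaagcgtcgggattagg
SNHG7: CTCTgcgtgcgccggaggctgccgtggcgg
SNHG4: CCTTTCCCCTCCggcctctgccggtgctgc
A run of at least 5 pyrimidines from a first-base C was found at the start of at least 1 annotated transcript in 6 of the 9 host genes, namely GAS5, SNHG29, SNHG1, SNHG16, SNHG8 and SNHG4. Over all annotation 6.58% of 58676 genes had such a transcript, and so did 66 of 79 cytosolic ribosomal protein genes. GAS5 has 29 annotated transcripts and SNHG29 has 30, against 4 each for SNHG7 and SNHG10, so the chance of a match differs between genes. The longest such run is 4 bases in SNHG7, 2 in SNHG15 and 0 in SNHG10. These are descriptions of annotated ends, and no transcript start was measured here.

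Promoter windows of 300 bases, from 250 bases before to 50 bases after the annotated start, are shown for SNHG8 and SNHG7, the members with the largest rises, and for SNHG10, the member that fell. They come from RefSeq (GRCh38.p14), and capitals mark matches to the motifs named after them.
SNHG8, chr4:118278512-118278811, plus strand: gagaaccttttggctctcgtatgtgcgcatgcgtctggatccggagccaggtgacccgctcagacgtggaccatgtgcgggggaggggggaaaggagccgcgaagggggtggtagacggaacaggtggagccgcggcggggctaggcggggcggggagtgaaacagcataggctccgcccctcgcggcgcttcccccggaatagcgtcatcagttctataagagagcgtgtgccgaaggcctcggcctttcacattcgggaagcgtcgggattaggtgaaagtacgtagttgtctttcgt
SNHG7, chr9:136728135-136728434, minus strand: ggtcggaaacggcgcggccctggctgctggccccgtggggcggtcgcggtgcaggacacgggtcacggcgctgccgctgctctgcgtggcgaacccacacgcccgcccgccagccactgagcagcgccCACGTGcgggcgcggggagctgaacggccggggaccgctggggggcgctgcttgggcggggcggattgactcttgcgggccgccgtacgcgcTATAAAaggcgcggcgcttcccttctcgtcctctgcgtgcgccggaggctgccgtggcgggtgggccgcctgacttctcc
SNHG10, chr14:95534823-95535122, minus strand: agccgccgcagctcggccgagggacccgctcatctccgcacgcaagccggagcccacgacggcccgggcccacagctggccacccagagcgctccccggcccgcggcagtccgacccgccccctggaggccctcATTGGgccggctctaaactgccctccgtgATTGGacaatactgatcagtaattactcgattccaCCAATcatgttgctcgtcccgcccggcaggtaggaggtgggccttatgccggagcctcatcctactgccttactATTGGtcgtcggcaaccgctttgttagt
The motifs searched on both strands were the E-box CACGTG, the cyclic AMP response element TGACGTCA, TGATGCAA (a form of the C/EBP-ATF element), the CCAAT box and TATAAA. They do not overlap each other in these windows. Of the 9 host genes 8 have a window in the table. SNHG7 holds CACGTG at position -122 and TATAAA at position -30, counted from the annotated start as position 1. SNHG10 holds 4 CCAAT matches, of which those on the other strand read ATTGG, and SNHG8 holds no match (0). Of 35116 windows, 7.26% hold CACGTG, 11.5% TATAAA, 34.6% CCAAT, 1.85% TGACGTCA and 0.866% TGATGCAA. Among the 8 host gene windows CACGTG is in 1, TATAAA in 2, CCAAT in 3, and TGACGTCA and TGATGCAA in 0.

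Values are the deposited normalized counts, in which each library's reads are divided by that library's size factor. Reads in the listed genes numbered 4187326 to 5071791 in fasting libraries and 4017618 to 5602177 in control libraries, and total depth is unknown. Host gene reads ran from 317 to 6014 per library, except for SNHG10, with 40 to 60 in fasting and 156 to 252 in control libraries. The authors tested 29845 genes and deposited the 11.8% with an adjusted p under 0.05, so each listed gene had already been chosen for its difference. A test on a listed gene therefore describes its size and spread and is not independent evidence, and counts of listed members that changed cannot be read as counts of all host genes. Fasting replicate 3 stood apart, with a mean chi-square over genes of 56.1 to 56.5 against the other fasting replicates, where 1 is expected from sampling. Those others had 1.87 between them, so results are given with and without fasting replicate 3. Among control libraries the value was 2.14 between replicates 1 and 2. Control replicate 3 had 5.08 and 6.61 against them. Of the marker genes for other cell types, no leukocyte (0 of 4) and no endothelial gene (0 of 2) was listed. Of 11 epithelial and colorectal markers 1 was listed (KRT18, log2 fold change 1.72), and of 4 mesenchymal markers 1 (VIM, -0.89, a call lost without control replicate 1 at adjusted p = 0.0502, limma), so the cell identity could not be checked from this table. In a stress and RNA quality list 6 of 8 genes were listed and all 6 rose, their summed level lying at 38117 to 44588 normalized counts in fasting libraries and 4878 to 5225 in control libraries. HSPA1B (log2 fold change 3.91) and EGR1 (1.43) made up most of that sum in each library, so it does not describe the list as a whole. The part of these 6 genes in the results below was not tested.

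In fasting medium 8 of the 9 host genes rose and SNHG10 fell. The largest rises were those of SNHG8 (3.49-fold), SNHG7 (3.42-fold) and GAS5 (2.62-fold), then SNHG29 (2.14-fold). SNHG1, SNHG15, SNHG16 and SNHG4 rose 1.53- to 1.70-fold, and SNHG10 lay 2.71-fold higher in control medium. All 9 passed limma's test (adjusted p under 0.05), with all 6 libraries and without fasting replicate 3. Without moderation of the variance 2 of the 9 passed, and with libraries scaled to their total reads in listed genes 5 passed. Among all 3511 listed genes 49.7% passed upward and 44.6% downward, and without that library 50.2% and 49.8%. Upward passes made up 32.3% of listed genes without moderation and 24.6% under total-read scaling. In both directions together 1981 of the 3511 passed without moderation and 2570 under total-read scaling. The 2 and 5 members are to be set beside these counts, since the 5 include SNHG10, which fell. Members thus passed less often than listed genes in both settings. At least 2-fold rises numbered 4 of the 9 (3 without fasting replicate 3), against 26.6% of listed genes. The median log2 fold change was 0.76 over the 9 host genes and 0.53 over all listed genes. With 1764 listed genes higher and 1747 lower, the latter is the value of a gene at the lower edge of the rising ones. It was -0.55 when a mean of at least 10 in 1 group was required, so it is no central reference for the host genes. Over the genes that passed upward the median was 1.04. Without fasting replicate 3 the medians were 0.69 over the host genes and 0.44 over all listed genes.

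**Figure D1:**
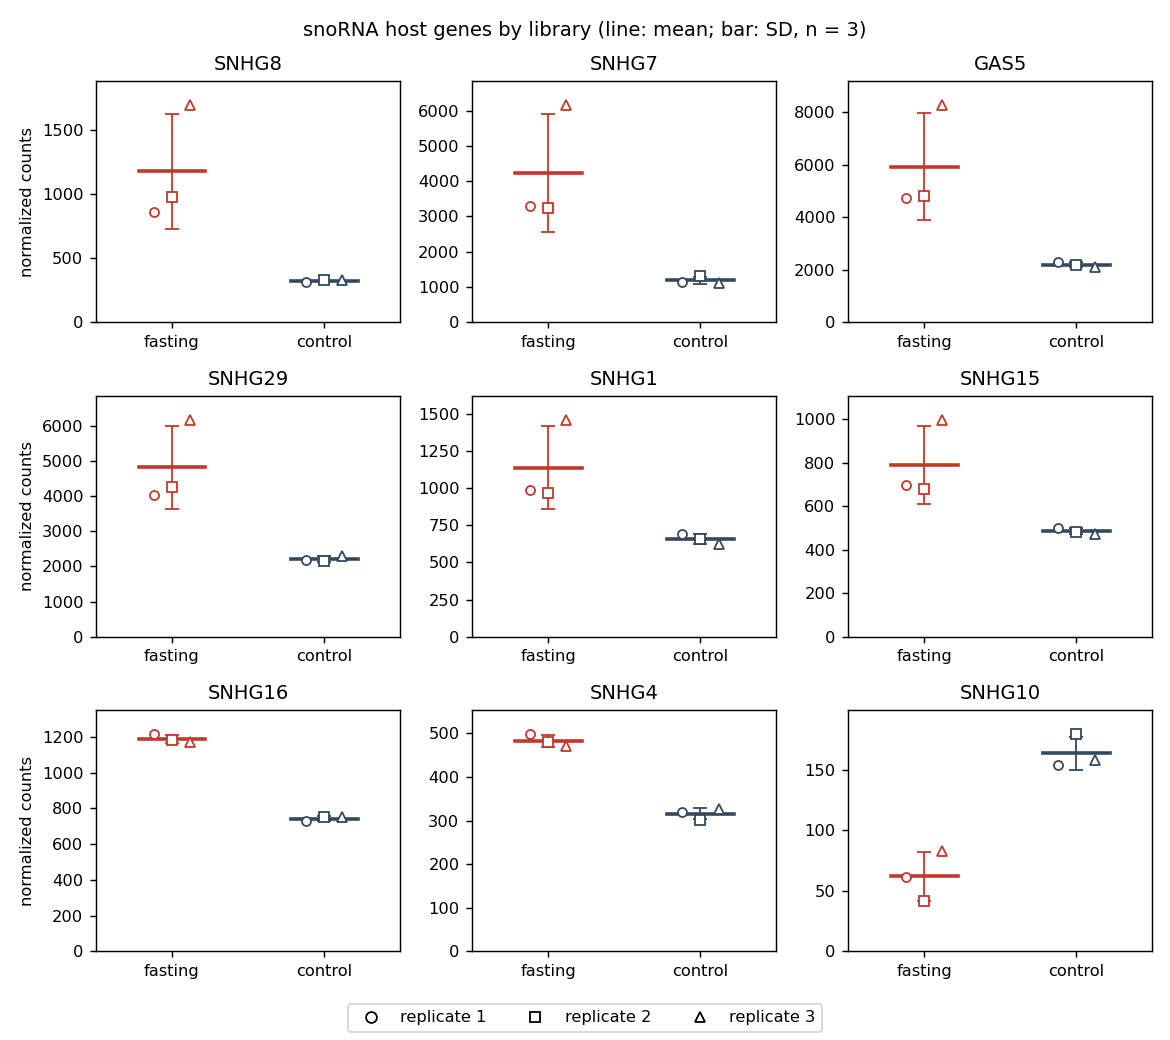
Normalized counts (y axis, linear, from 0) of each host gene in the 3 fasting and the 3 control libraries, with 1 symbol per replicate number, the group mean as a line and the SD as a bar. The fasting values lie above the control values in every panel except SNHG10, and fasting replicate 3 is the highest fasting library in 7 of the 9 panels.

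Among the members that host box C/D snoRNAs, GAS5 had the highest counts in fasting medium. It had 4718, 4801 and 8269.7 normalized counts in fasting replicates 1 to 3, against 2294, 2163 and 2099 in control replicates 1 to 3. All fasting values lie above all control values, and fasting replicate 3 is the highest. GAS5 averaged 5929.8 ± 2027 in fasting medium and 2185 ± 99.4 in control medium (SD, n = 3 each), a log2 fold change of 1.39 ± 0.21 (SE; adjusted p = 2.90e-03, limma). Without fasting replicate 3 the log2 fold change was 1.12 ± 0.05 (SE).

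SNHG29, also known as LRRC75A-AS1, had 4038, 4245 and 6169.9 normalized counts in the fasting libraries, against 2194, 2147 and 2293 in the control libraries. The groups do not overlap, as in every listed gene (50.2% higher and 49.8% lower in fasting medium). Its log2 fold change was 1.10 ± 0.16 (SE; adjusted p = 2.48e-03, limma), and 0.90 without fasting replicate 3. In control medium GAS5 and SNHG29 were nearly level per library, the log2 ratio of GAS5 over SNHG29 being -0.02 ± 0.10 (SD, n = 3). In fasting medium that ratio was 0.27 ± 0.13 (SD, n = 3).

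SNHG1, host of a cluster of 8 SNORD genes, rose less. It had 990.2, 968 and 1462 normalized counts in fasting libraries, against 691, 659 and 627 in control libraries. Its log2 fold change was 0.76 ± 0.16 (SE; adjusted p = 0.0162, limma), and 0.57 without fasting replicate 3. SNHG1 lost its call when any 1 control library was left out (adjusted p = 0.0573 to 0.0879).

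SNHG16, host of the SNORD1 genes, had the smallest relative spread in fasting medium, with an SD of 1.84% of the mean. It had 1215, 1183 and 1173 normalized counts in fasting libraries, against 727, 749.5 and 754 in control libraries. The log2 fold change was 0.68 ± 0.08 (SE; adjusted p = 8.14e-04, limma), and 0.69 without fasting replicate 3. Fasting replicate 3 is the lowest fasting library for this gene, unlike for GAS5, SNHG29 and SNHG1.

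Among hosts of box H/ACA snoRNAs, SNHG8 and SNHG7 rose most. SNHG8, host of SNORA24, had 863, 978 and 1694 normalized counts in fasting libraries, against 313, 327 and 326 in control libraries. Control values were close to each other (322 ± 8.05, SD, n = 3), while fasting values were spread (1178 ± 450.2, SD, n = 3), with replicate 3 well above the other fasting libraries. The log2 fold change was 1.80 ± 0.23 (SE; adjusted p = 1.44e-03, limma), and 1.51 ± 0.07 (SE) without that library.

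SNHG7, host of SNORA17A and SNORA17B, had 3301, 3245 and 6160.3 normalized counts in fasting libraries, against 1146, 1297 and 1111 in control libraries. Its means were 4235 ± 1667 in fasting medium and 1185 ± 98.5 in control medium (SD, n = 3 each). The log2 fold change was 1.77 ± 0.23 (SE; adjusted p = 1.75e-03, limma), and 1.47 ± 0.06 (SE) without fasting replicate 3. The log2 ratio of SNHG8 over SNHG7 was -1.84 ± 0.10 in fasting and -1.87 ± 0.11 in control medium (SD, n = 3 each), a difference of 0.03. With the trend with transcript length removed that difference was -0.30, so the order of the 2 rises depends on this step.

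SNHG15, host of SNORA9, had 698, 679 and 998 normalized counts in fasting libraries, against 501, 482 and 474 in control libraries. The log2 fold change was 0.68 ± 0.15 (SE; adjusted p = 0.0217, limma), and 0.50 without fasting replicate 3. As for SNHG1, the call was lost when any 1 control library was left out (adjusted p = 0.0786 to 0.105). SNHG15 and SNHG1 were also the members nearest to the cut-off of the authors' deposited table, with adjusted p of 0.0448 and 0.0413 there.

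SNHG4, host of SNORA74A and SNORA74D, had 498, 481 and 470.3 normalized counts in fasting libraries, against 319.5, 301 and 326 in control libraries. The values within each group were close, and fasting replicate 3 is again the lowest fasting library. The log2 fold change was 0.61 ± 0.09 (SE; adjusted p = 2.81e-03, limma), and 0.63 without fasting replicate 3. MATR3, an RNA-binding protein gene on the same strand, overlaps SNHG4 by 10798 bases in GENCODE and is not listed, so the reads of SNHG4 are uncertain.

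SNHG10, host of the small Cajal body RNA SCARNA13, was the least abundant member and the only one that fell. It had 60.9, 41.8 and 82.5 normalized counts in fasting libraries, against 154, 179 and 158 in control libraries. The highest fasting value lies below the lowest control value. The log2 fold change was -1.44 ± 0.24 (SE; adjusted p = 4.66e-03, limma), and -1.67 ± 0.16 (SE) without fasting replicate 3.

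**Figure D2:**
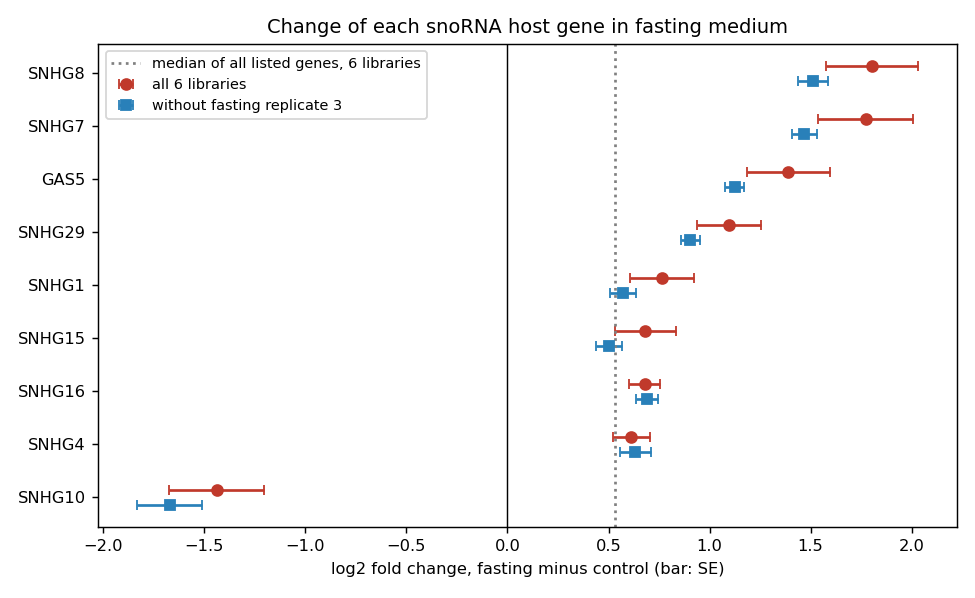
Log2 fold change of each host gene (x axis, fasting minus control, bars are the SE of the fit) with all 6 libraries (circles) and without fasting replicate 3 (squares). Every member keeps its side of 0, SNHG8, SNHG7, GAS5 and SNHG29 lie nearer to 0 without that library (1.80 against 1.51 for SNHG8), and SNHG16 and SNHG4 move little. The dotted line is the median of all listed genes (0.53), which lies at the lower edge of the rising genes and is no central reference.

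The sum over the 9 host genes was 16382, 16621 and 26480 normalized counts in fasting replicates 1 to 3, against 8339.7, 8304 and 8167 in control replicates 1 to 3. GAS5, SNHG29 and SNHG7 make up most of it in each library. Per kilobase of the longest annotated transcript, GAS5 (3492) and SNHG29 (2899) led in fasting medium, followed by SNHG7 (1797) and SNHG8 (1754), then SNHG1 (412), SNHG16 (329.99), SNHG15 (254), SNHG4 (203) and SNHG10 (40.3), all as mean normalized counts per kilobase. On the same scale SNHG29 (1331) and GAS5 (1287) led in control medium, followed by SNHG7 (503), SNHG8 (479), SNHG1 (238), SNHG16 (206), SNHG15 (156), SNHG4 (132) and SNHG10 (107). Neighbours whose library values overlap per kilobase cannot be ordered beyond their spread. Examples are SNHG7 and SNHG8 in both media, and GAS5 and SNHG29 in control medium. By the median annotated transcript length GAS5 was ahead of SNHG29 in fasting medium (8619 and 6149 per kilobase) and in control medium too (3177 and 2823). On that scale SNHG15 also came before SNHG16, at 940.4 and 841 in fasting medium and 577 and 525 in control medium. Which transcripts are expressed is not known, so levels per kilobase are approximate.

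The amounts by which members changed were compared within libraries. The log2 ratio between 2 members within a library does not depend on the scaling, though it does depend on any trend with transcript length, and all 36 pairs were compared between fasting and control medium. In 30 pairs the fasting ratios did not overlap the control ratios, which gave an exact two-sided permutation p of 0.1, the smallest that 3 against 3 libraries allow, and a Benjamini-Hochberg adjusted p of 0.12 over the 36 pairs. No pair could thus pass 0.05. Every listed gene has groups that do not overlap, and the share over pairs of other listed genes was not computed. The counts of pairs without overlap therefore cannot be read as a trait of the host genes. GAS5 over SNHG16 had a log2 ratio of 2.26 ± 0.48 in fasting and 1.55 ± 0.09 in control medium (SD, n = 3 each). That difference of 0.71 was 0.43 without fasting replicate 3 and 0.40 with the length trend removed. SNHG8 over GAS5 was -2.34 ± 0.09 in fasting and -2.76 ± 0.10 in control medium (SD, n = 3 each). The difference of 0.42 was 0.39 without that library, but 0.13, with overlapping ratios, once the length trend was removed. All 8 pairs with SNHG10 had ratios that did not overlap. That was fixed in advance, since SNHG10 fell and the other members rose, each without overlap between the groups. These 8 are among the 30. The 6 overlapping pairs were SNHG8 with SNHG7 and those among SNHG1, SNHG15, SNHG16 and SNHG4, apart from SNHG1 with SNHG15. Without fasting replicate 3, 33 pairs did not overlap, at a smallest exact p of 0.2. With the length trend removed 27 did not overlap.

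Fasting replicate 3 was higher than the other fasting replicates for short transcripts and lower for long ones. Among listed genes with transcripts of 78 to 2740 bases its median offset from the mean of replicates 1 and 2 was 0.37 log2 units (quartiles 0.20 and 0.53), among those of 2742 to 4510 bases it was 0.02, and among those of 4511 to 22743 bases it was -0.38. The 9 host genes have longest transcripts of 672 bases (SNHG8) to 3607 bases (SNHG16), and none (0) is in the long class. Fasting replicate 3 was the highest fasting library for 7 of the 9 members, against 47.6% of listed genes. The offset was 0.91 for SNHG7, 0.88 for SNHG8, 0.80 for GAS5, 0.70 for SNHG10, 0.58 for SNHG29, 0.58 for SNHG1 and 0.54 for SNHG15, each above the upper quartile of its length class. It was -0.03 for SNHG16 and -0.06 for SNHG4. With the trend with transcript length removed from each library, the log2 fold changes were 1.22 for SNHG8, 1.52 for SNHG7, 1.10 for GAS5 and -1.75 for SNHG10. SNHG4 no longer passed (0.36, limma, adjusted p = 0.0604), though it was at 0.63 without fasting replicate 3. This step also takes out any difference between fasting and control medium that goes with length. It is therefore not a correction for fasting replicate 3 alone.

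**Figure D3:**
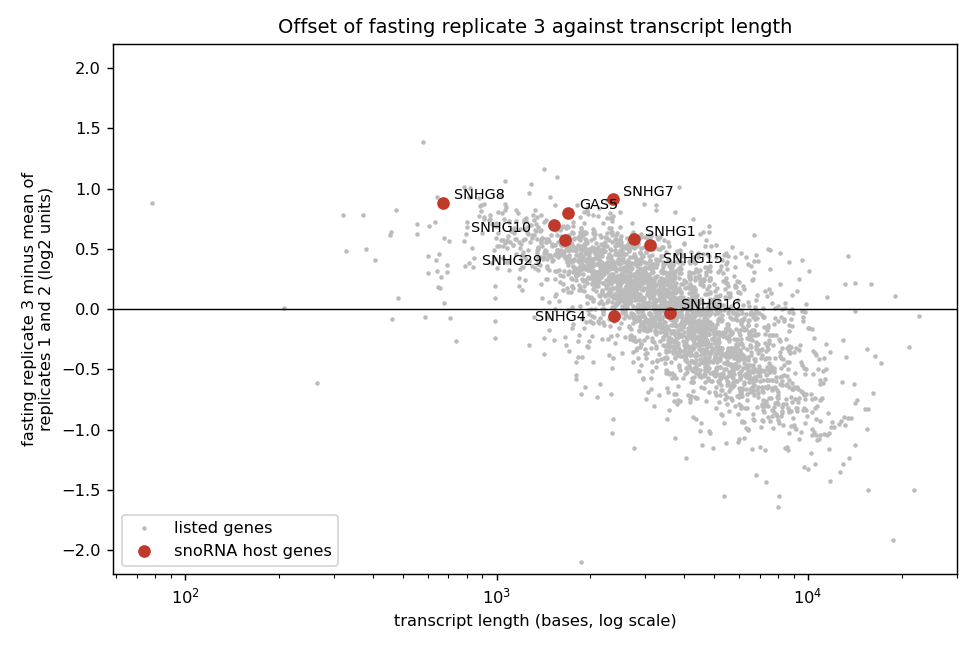
Offset of fasting replicate 3 from the mean of fasting replicates 1 and 2 (y axis, log2 units) against transcript length (x axis, bases, log scale) for listed genes of at least 100 normalized counts in a group (grey) and for the 9 host genes (red). SNHG7, SNHG8 and GAS5 lie at 0.80 to 0.91, while SNHG16 and SNHG4 lie near 0.

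The amount of change also depends on how libraries are scaled. Scaling by each library's summed reads in listed genes (total-read scaling) moves the median log2 fold change of all listed genes by -0.48. RLE scaling (median of ratios) moves it by 0.20. The RLE factors, and the TMM factors used with edgeR, were likewise estimated on the listed genes alone. Both methods take most genes as unchanged, while every listed gene was chosen for a difference. Under total-read scaling SNHG8 (1.33), SNHG7 (1.30), GAS5 (0.91), SNHG29 (0.62) and SNHG10 (-1.91) still passed, while SNHG1 (0.29), SNHG15 (0.21), SNHG16 (0.20) and SNHG4 (0.14) did not. No member changed sign under the 19 alternatives. Which scaling fits these libraries was not tested, and every change given here rests on the deposited size factors.

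**Figure D4:**
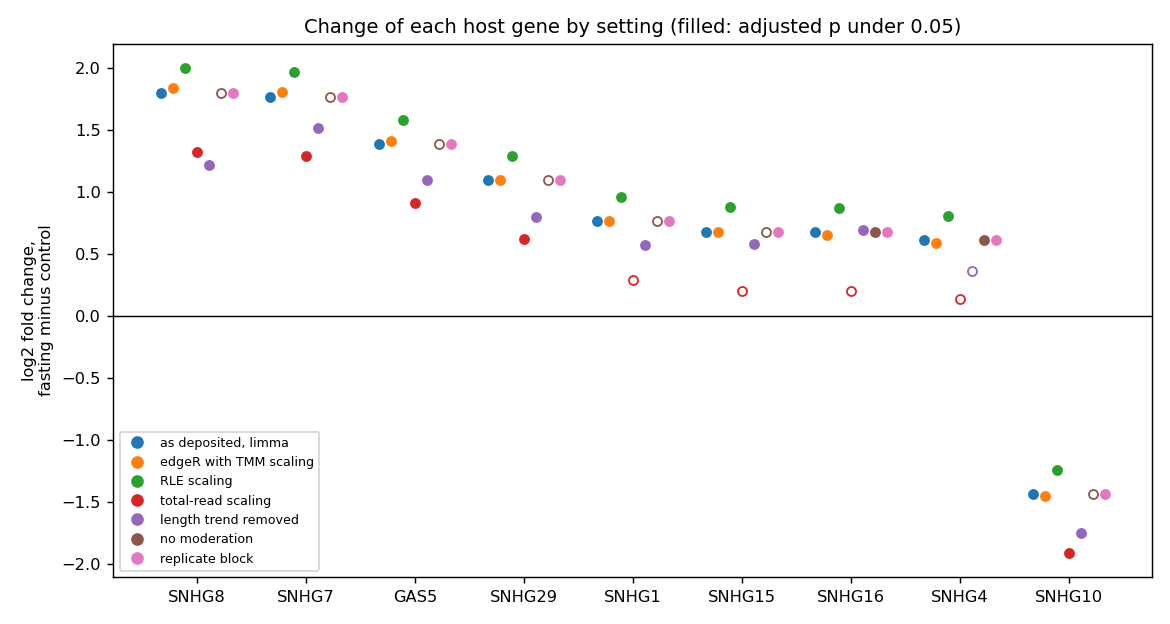
Log2 fold change of each host gene (y axis, fasting minus control) under 7 settings, with filled symbols for an adjusted p under 0.05 and open symbols otherwise. SNHG1, SNHG15, SNHG16 and SNHG4 lie between 0.14 and 0.29 and are open under total-read scaling, and 7 of the 9 genes are open without moderation of the variance.

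Genes that overlap or adjoin the host genes bear on their reads, because it is not stated whether counting used the strand, although the library kit keeps it. SNHG10 overlaps GLRX5, which encodes a mitochondrial iron-sulfur cluster protein, by 1370 bases on the opposite strand. GLRX5 was lower as well, with 479, 519 and 765 normalized counts in fasting libraries, against 955, 1062 and 923 in control libraries (log2 fold change -0.77, adjusted p = 0.0239, limma). GLRX5 no longer passed when any 1 control library, or fasting replicate 1 or 2, was left out (adjusted p up to 0.111). GLRX5 is the more abundant of the pair in each library, so the fall of SNHG10 is uncertain on this ground. SNHG1 adjoins SLC3A2, which encodes the heavy chain of several amino acid transporters, on the opposite strand within 1000 bases, with no overlap (0 bases). SLC3A2 had 15307, 15907 and 23625 normalized counts in fasting libraries, against 1792, 1828 and 1893 in control libraries (log2 fold change 3.29). PRSS12, a serine protease gene beside SNHG8 on the opposite strand, had 166, 158 and 79.8 normalized counts in fasting libraries, against 289, 349 and 300.2 in control libraries (log2 fold change -1.28, adjusted p = 0.0165, limma). Its call was lost without any 1 control library (adjusted p up to 0.0762). The genes that overlap GAS5, SNHG7, SNHG29 and SNHG16 are not listed.

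The listed genes with the most similar pattern to each member were found by the root mean square difference of log2 values, each centred on its mean over the 6 libraries, among 2785 genes of mean 100 or more. For SNHG8 the nearest was FTL, the ferritin light chain (0.04 log2 units), and SNHG7 was the third (0.09). For SNHG7 the nearest was SNHG8 (0.09), then RRAGC, a Rag GTPase of amino acid sensing (0.10). For GAS5 they were UBB, a polyubiquitin gene (0.06), and WDR45 (0.06). For SNHG29 the nearest was RACK1, a ribosome-bound scaffold and itself a snoRNA host (0.02). It was CCNH for SNHG1 (0.04), ATG5 for SNHG15 (0.02), BCL2L13 for SNHG16 (0.02), TRAF3IP2 for SNHG4 (0.01) and RAB26 for SNHG10 (0.08). These distances describe 6 libraries in 2 groups, in which any genes with a like change and a like replicate 3 lie close.

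Related gene groups are described by their listed members, which had to differ to be listed. Of all tested genes 11.8% were listed, and of the listed ones 49.7% passed upward, 24.6% under total-read scaling and 32.3% without moderation. Of 4 other noncoding hosts 2 were listed and both rose. EPB41L4A-AS1, host of SNORA13, had 611, 629.7 and 1134 normalized counts in fasting libraries, against 251, 259 and 259 in control libraries (log2 fold change 1.56 ± 0.23, SE; adjusted p = 2.57e-03, limma). ZFAS1, host of the SNORD12 genes, had 273, 321 and 388 in fasting libraries, against 176, 176 and 189 in control libraries (log2 fold change 0.84, adjusted p = 5.53e-03, limma). Under total-read scaling 1 of the 2 passed, and without moderation 0.

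Of 33 protein-coding snoRNA hosts in a chosen list 11 were listed (33.3%). None of the 11 is a ribosomal protein gene. Ribosomal protein genes, whether or not they host snoRNAs, are counted apart below, so this share describes the chosen list alone. Each of the 11 rose, with a median log2 fold change of 1.06 (1.02 without fasting replicate 3), and 9 passed under total-read scaling and 9 without moderation. HSPA8, the constitutive HSP70 chaperone, rose by 1.47 (adjusted p = 8.21e-05), the translation factors EIF5 by 1.15 and EIF4A2 by 1.16, and the mitochondrial chaperone HSPA9 by 1.06 log2 units (limma). SNORD14E, a box C/D snoRNA within HSPA8 and 1 of 3 snoRNA genes listed in all, had 6.28 to 13.96 normalized counts in fasting libraries, against 0.727 to 2.96 in control libraries. Reads of an intronic snoRNA and of its unspliced host cannot be told apart in this table. TPT1, a TOP mRNA, had 14582, 15374.5 and 24088 normalized counts in fasting libraries, against 5947, 6008 and 6431 in control libraries.

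Of 79 cytosolic ribosomal protein genes 9 were listed (11.4%), a share near the 11.8% of all tested genes. These 9 rose (median 0.96, and 0.78 without fasting replicate 3), and under total-read scaling 4 passed and without moderation 0. RPL4 rose by 0.92, RPL3 by 0.96, RPL9 by 1.14 and RPL10 by 1.13 log2 units, each a component of the large subunit. The calls of RPL5, RPL22 and RPS6, named for this loss, did not hold on leaving out single control libraries (adjusted p up to 0.0912). The median offset of the 9 in fasting replicate 3 was 0.65, near the 0.58 of the host genes. Ribosomal protein genes have many processed pseudogenes, so their reads are uncertain.

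None (0) of 19 snoRNP core and assembly genes, such as those for fibrillarin and dyskerin, was listed. Of 22 nonsense-mediated decay genes 2 (9.09%, below the 11.8% of all tested genes) were listed and rose, the release factor ETF1 by 0.69 and PNRC2 by 0.58 log2 units, and 0 passed under total-read scaling. Of 10 coding transcripts known to be under nonsense-mediated decay 8 were listed, against 11.8% of all tested genes, and the 8 rose (median 2.05), among them ATF3 (4.13), GADD45B (4.40), DDIT3 (3.91) and ATF4 (2.13). These are stress response genes in their own right, and ATF3 is also in the stress and RNA quality list.

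In the list of mTOR and TOP mRNA control 6 of 19 genes were listed (31.6%, against 11.8% of all tested genes), of which 5 rose and 1 fell (median 0.90). Without moderation 3 passed upward and 0 downward. LARP4 (0.62), named for this, lost its call when any 1 control library, or fasting replicate 1 or 2, was left out (limma, adjusted p up to 0.0911). The mTORC1 inhibitors SESN2 (3.32) and DDIT4 (2.33) rose, as did PABPC1, the poly(A)-binding protein (0.83). RHEB, an activator of mTORC1, rose too (0.97), a call lost without moderation (limma, adjusted p = 0.0744). EIF4EBP2, a translation repressor, fell by 0.79 on the log2 scale. The call of EIF4EBP2 was lost without moderation (limma, adjusted p = 0.0503) and after correction for transcript length (-0.32, adjusted p = 0.0679). LARP1, the main TOP mRNA-binding protein, was not listed. Of 8 genes of the glucocorticoid receptor and its response 4 were listed (50%, against 11.8% of all tested genes). Of these DUSP1 (2.84), SGK1 (1.67) and TSC22D3 (1.72) rose and FKBP5 fell by 0.80 on the log2 scale. DUSP1 is also in the stress and RNA quality list. The receptor gene NR3C1 was not listed.

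**Figure D5:**
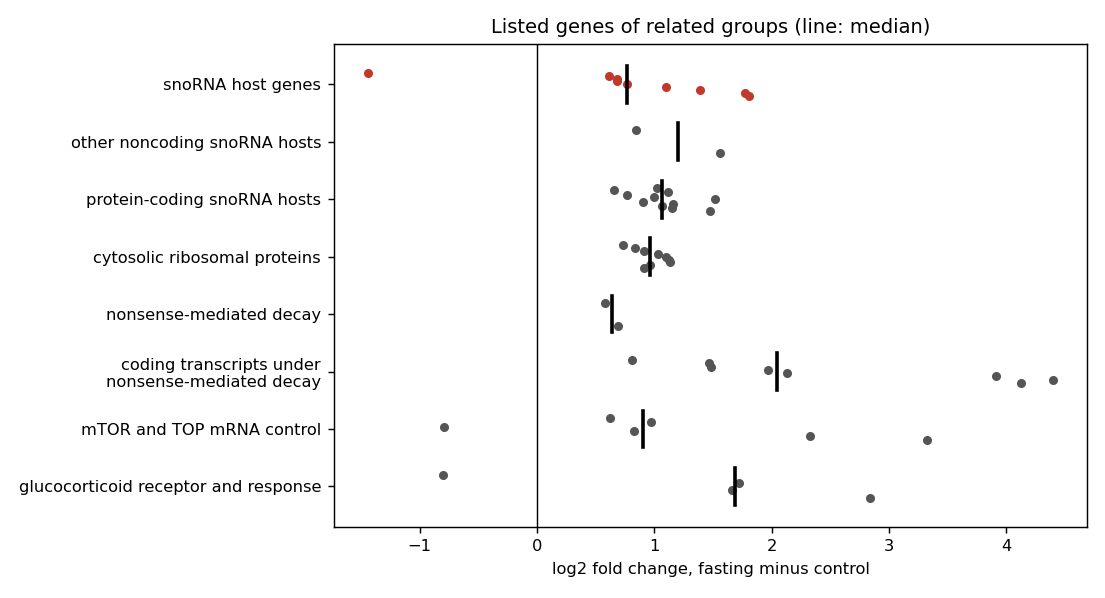
Log2 fold change (x axis, fasting minus control) of the listed genes in the host gene family (red) and in 7 related lists (grey), with 1 point per gene and a line at the median. The host genes have a median of 0.76 with SNHG10 apart at -1.44. All 11 genes of the protein-coding host list and 9 ribosomal protein genes lie above 0.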

How the data were processed

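Gene expression was measured by RNA sequencing in 3 fasting and 3 control libraries. Per the labels' protocols, total RNA was column-purified and made into strand-specific libraries. Whether poly(A) RNA was selected is not given in the sources used here, and neither are the aligner, the genome build and the annotation. DESeq 1.10.1, HTSeq 0.6.1 and UMI-tools 1.0.0 appear in the submitters' processing notes, without their roles. Per the file headers and values, the authors deposited 1 table with a normalized count signal per library, a log2 fold change, a p-value and an adjusted p-value. The signal was a whole multiple of 1 read for 100% of values (tolerance 0.01 read).

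The main test was limma 3.58.1 (R 4.3.3) with a variance trend on log2(normalized count + 1), where a group's mean reached 1, with Benjamini-Hochberg adjustment over the 29845 genes the authors tested (unlisted genes at p = 1). Tests were two-sided with a threshold of 0.05. Fold values come from means of log2 values, and this scale understates the change of low genes. The planned design named edgeR for counts and limma for normalized values. Moderation was estimated on selected genes. Alternatives included edgeR 4.0.16 and DESeq2 1.42.0 on the recovered reads, and the scripts were tested on simulated data. Groups follow the treatment label of each sample. Drug arms named in the series' design were not analysed here. The members, lists and tests were chosen with earlier results of these data known. SNHG7, SNHG8, SNHG10 and GAS5 had been named beforehand, and the rule found the rest. From each list the 4 genes with the smallest adjusted p were named, with the first of the opposite direction. TPT1, SNORD14E, LARP1, LARP4, RHEB, NR3C1 and the neighbouring genes were named after their values were seen.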

Additional observations from a re-analysis of the deposited data

How the results depend on the processing

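SNHG8, SNHG7, GAS5, SNHG29 and SNHG10 passed in 18 of 19 alternatives each, SNHG16 in 18, SNHG4 in 17, and SNHG1 and SNHG15 in 14. The alternatives are not independent checks, since they reuse the same libraries and genes listed for their difference. Dropping the filter left the result of every member unchanged. Without moderation of the variance 1981 listed genes passed in place of 3312, and the calls of SNHG8 (1.80, adjusted p = 0.0552), SNHG7 (1.77, 0.0643), SNHG29 (1.10, 0.0662), GAS5 (1.39, 0.0826), SNHG10 (-1.44, 0.0889), SNHG1 (0.76, 0.179) and SNHG15 (0.68, 0.191) were lost (limma) with each gene's own variance. Total-read scaling lost SNHG1 (0.29), SNHG15 (0.21), SNHG16 (0.20) and SNHG4 (0.14) and gave 862 higher (33.5%) and 1708 lower genes, against 1745 (52.7%) and 1567. Removing the length trend lost SNHG4 (0.36). On the recovered reads edgeR called 1752 genes higher and 1607 lower, DESeq2 1751 and 1731, and both called all 9 members.

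Leaving out each library in turn gave log2 fold changes of 0.57 to 0.87 for SNHG1, 0.50 to 0.78 for SNHG15, 1.47 to 1.93 for SNHG7, 1.12 to 1.53 for GAS5 and -1.67 to -1.19 for SNHG10. Without fasting replicate 3 the difference in log2 ratio changed sign for SNHG1 over SNHG16 (-0.12), SNHG1 over SNHG4 (-0.061), SNHG15 over SNHG16 (-0.19) and SNHG15 over SNHG4 (-0.13), pairs whose ratios overlapped with all libraries. Removing the length trend from the ratios, a step chosen after seeing the data, changed the sign for SNHG8 over SNHG7 (-0.30), SNHG1 over SNHG15 (-0.0066), SNHG1 over SNHG16 (-0.12) and SNHG15 over SNHG16 (-0.11). Samples with the same replicate number did not deviate together (correlations 0.03, 0.03 and 0.08 across genes). With the replicate number as a block SNHG8 was at 1.80 and SNHG10 at -1.44, all 9 members passed, and 3293 listed genes passed. Depth is known for listed genes alone, and SNHG10, with 40 reads in 1 library, is the least precise member.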
